A study of Arabidopsis thaliana with 40 samples.

Results

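The response of the root transcriptome to a TAF12B mutation was compared between the background of the bzip17 bzip28 double mutant (bz1728) and the wild-type background, as the lines are known. The comparison is an interaction, (nobiro6 minus bz1728) minus (nbr6-t1 minus wt), taken on the log2 scale for every gene. It is 0 where nobiro6 differs from bz1728 by the same fold as nbr6-t1 from wt. Each background carries its own mutation, so an effect of the allele and an effect of the background cannot be told apart. It draws on 16 of the 40 messenger RNA libraries of the series, 4 root libraries from each of 4 genotypes, and the fit gave a value for 18745 genes.

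All plants were Arabidopsis thaliana seedlings of Col-0 origin as far as the labels state it. The line nobiro6 is a suppressor mutant that carries 1 further, unnamed mutation in the bz1728 double mutant, and bz1728 (written bzip1728 in the labels) combines the T-DNA insertions SALK_004048 and SALK_132285. The line nbr6-t1 carries the T-DNA insertion GABI_172C03, and wt is Col-0 with no mutation. The remaining line, taf12-t1 (WiscDsLoxHs044_12E), shared the estimate of the spread and enters 1 side comparison. Seeds were stratified at 4 °C for 3 d, and seedlings grew on agar in 16 h days at 22 °C and a humidity of 65%. For age the labels give 12 d in one field and 13 days after sowing in another. The labels do not name the genes hit. That the insertions of bz1728 lie in BZIP17 and BZIP28, and that the nobiro6 and nbr6-t1 mutations lie in TAF12B, is background knowledge of these lines. Each genotype is a single line, so a second mutation linked to it cannot be told apart from the named one.

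TAF12B (also named EER4, AT1G17440) is a histone-fold subunit of the general transcription factor TFIID, which sits at core promoters. BZIP17 and BZIP28 are transcription factors held in the endoplasmic reticulum (ER) membrane. When unfolded proteins accumulate they are cut free in the Golgi, move to the nucleus and induce chaperone genes, as 1 arm of the unfolded protein response (UPR). The other arm starts with the RNA splicing enzyme IRE1, which activates BZIP60, and both arms act in root growth.

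Some promoters of UPR genes hold the ER stress response element ERSE-I (CCAAT, any 10 bases, CACG), the UPR element UPRE-I (TGACGTGG) or the G-box (CACGTG). Both strands were searched in the 250 bases before each gene's start, from RefSeq (build TAIR10.1), and a G-box can share letters with an ERSE-I. The windows of 4 genes are printed 5′ to 3′ on the gene's strand, with the outer letters of ERSE-I and the whole of UPRE-I and the G-box in capitals, also where the motif lies on the other strand and shows as its reverse complement. BIP3 and PDIL1-2 are the 2 genes of the stress-type UPR list with an ERSE-I, TIN1 is the 1 member of that list with a UPRE-I, and P58IPK is an ER chaperone gene with 2 ERSE-I motifs. P58IPK was chosen after its values were seen.
BIP3 (chr1:2931851-2932100, minus strand): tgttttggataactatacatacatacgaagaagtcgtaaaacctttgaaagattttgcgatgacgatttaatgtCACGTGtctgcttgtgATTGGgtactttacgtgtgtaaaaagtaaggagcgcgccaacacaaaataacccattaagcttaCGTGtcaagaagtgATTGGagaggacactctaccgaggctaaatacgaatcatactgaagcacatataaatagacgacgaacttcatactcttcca
PDIL1-2 (chr1:29126398-29126647, plus strand): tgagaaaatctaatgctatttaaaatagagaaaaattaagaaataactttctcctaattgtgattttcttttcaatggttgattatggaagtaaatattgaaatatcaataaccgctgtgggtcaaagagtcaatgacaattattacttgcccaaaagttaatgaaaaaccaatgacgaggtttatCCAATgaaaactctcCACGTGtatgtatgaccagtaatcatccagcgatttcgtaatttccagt
TIN1 (chr5:25784154-25784403, plus strand): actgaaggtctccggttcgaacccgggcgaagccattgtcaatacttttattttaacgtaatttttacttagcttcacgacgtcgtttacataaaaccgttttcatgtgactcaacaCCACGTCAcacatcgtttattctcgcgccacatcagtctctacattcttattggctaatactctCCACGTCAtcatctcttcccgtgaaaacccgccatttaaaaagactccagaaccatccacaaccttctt
P58IPK (chr5:749851-750100, plus strand): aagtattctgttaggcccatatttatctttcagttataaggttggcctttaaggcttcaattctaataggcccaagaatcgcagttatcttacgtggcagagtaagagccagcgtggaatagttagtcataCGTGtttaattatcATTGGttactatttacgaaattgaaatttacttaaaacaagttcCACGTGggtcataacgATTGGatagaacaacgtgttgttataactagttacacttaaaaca
Among these genes BIP3 and PDIL1-2 had a called interaction, and TIN1 and P58IPK did not. A called gene is one with an adjusted p under 0.05 in edgeR's quasi-likelihood test with Benjamini-Hochberg adjustment over all genes tested.

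Levels are counts scaled to library size (CPM, counts per 1000000) and are given for single libraries in the order of replicates 1 to 4. CPM is not scaled by transcript length and is compared between genotypes only. Errors of log2 values are approximate standard errors. The 16 libraries held 2.66 to 8.20 M counts (median 4.73 M), and 1 count stood for at most 0.375 CPM. The biological coefficient of variation in root was 0.0811. Nothing in the labels says that replicates were separate cultures or plants, so p-values measure the spread between these libraries. The labels name no batch. In whole roots, fewer cells of a type and less RNA per cell cannot be told apart.

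The libraries were set against their labels at the mutated genes before anything else. BZIP28 (AT3G10800) held 15.1, 16.1, 15.5 and 8.95 CPM in the libraries labelled nobiro6 and 0 counts in all 4 labelled bz1728. The nobiro6 level was at least 104-fold above the bz1728 level, taken as 3 counts over the group. The nbr6-t1 libraries held 77.2, 76.3, 80.4 and 92.0 CPM, and those of wt 67.5, 76.2, 70.0 and 73.0 CPM. BZIP28 transcripts were therefore present in every nobiro6 root library, although the label places nobiro6 in the bz1728 background. In roots they lay below the level of the other lines with the gene. Shoot libraries held 24.3, 25.8, 25.7 and 31.6 CPM in nobiro6 and 0 in bz1728. Those of wt shoots held 34.35, 32.5, 29.1 and 41.9 CPM, so nobiro6 and wt overlapped there.

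In roots the next loci on the chromosome went the same way. AT3G10810 held 51.5, 44.6, 40.9 and 49.4 CPM in nobiro6 and 0 in bz1728, at least 348-fold apart, against 44.3, 40.7, 40.2 and 38.6 CPM in nbr6-t1 and 33.5, 41.7, 38.7 and 34.99 CPM in wt. AT3G10815 averaged 9.01 ± 1.22 CPM (SD, n = 4) in nobiro6 and 0 in bz1728, at least 67.3-fold apart. The nobiro6 levels of both loci lay near those of wt. The nobiro6 and bz1728 libraries thus differ at the BZIP28 region as well as at TAF12B, and in every result below these differences cannot be told apart. BZIP17 was low in both lines, with 3.40, 5.12, 4.09 and 6.80 CPM in nobiro6 and 5.47, 6.73, 5.99 and 4.00 CPM in bz1728, against 56.0 CPM on average in nbr6-t1 and 51.8 CPM in wt.

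TAF12B held 27.4, 26.5, 22.5 and 28.3 CPM in nobiro6 roots, against 40.9, 44.5, 46.2 and 41.4 CPM in bz1728 roots. In nbr6-t1 roots it held 63.6, 58.6, 60.7 and 52.3 CPM, against 45.5, 53.2, 56.8 and 56.8 CPM in wt roots. All nobiro6 libraries lay below all bz1728 libraries, while the nbr6-t1 and wt libraries overlapped. The interaction was -0.88 ± 0.13 (edgeR adjusted p = 9.38e-06). The root libraries labelled nbr6-t1 thus show no lower TAF12B transcript level, whereas the shoot libraries of that label held 14.1, 12.6, 17.59 and 12.4 CPM, against 45.2, 44.5, 49.4 and 55.6 CPM in wt shoots. An insertion can also leave a transcript that is counted and makes no working protein, which counts per transcript do not show. The paralog TAF12 (AT3G10070) had an interaction of -0.02 ± 0.26 (adjusted p = 0.978). Of 25 tested subunits of TFIID and of the coactivator complex SAGA, TAF12B itself was the 1 called (4%, against 11% of all genes). Whether this share is lower than that of all genes was not tested.

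**Figure D1:**
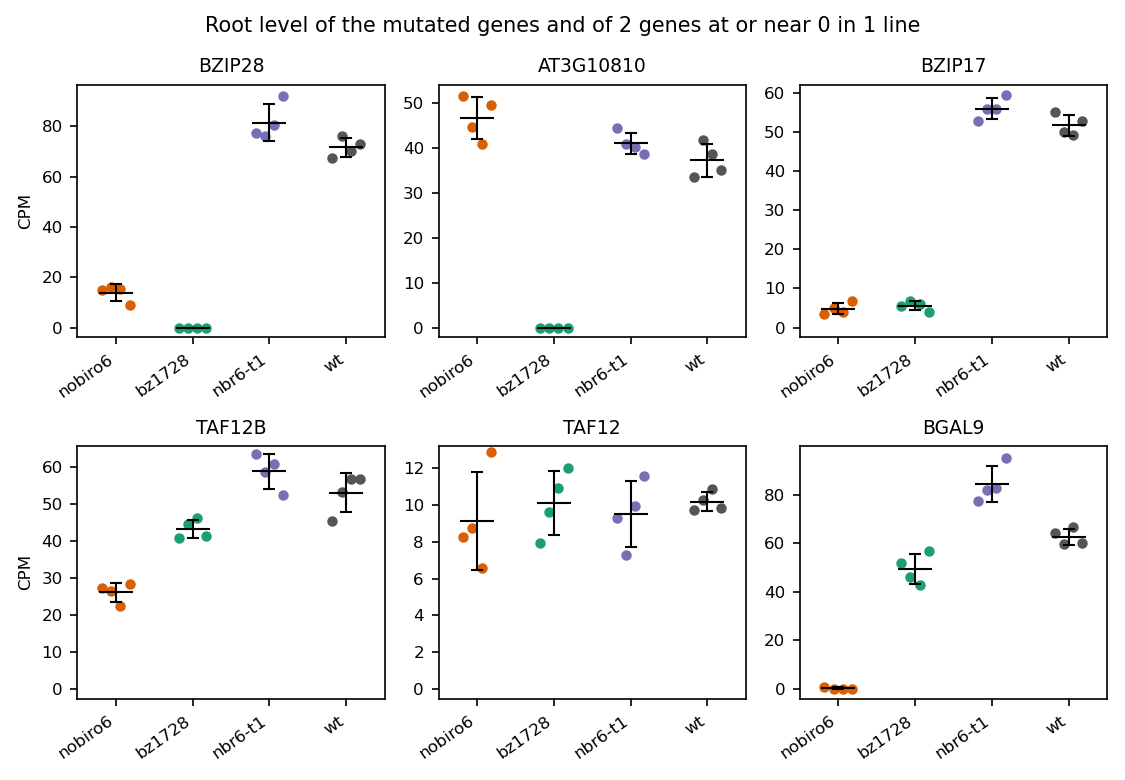
Level of the mutated genes and of AT3G10810 and BGAL9 in each of 16 root libraries (points, CPM) by genotype, with the mean and SD of 4 libraries as bars. BZIP28 is at 0 in the bz1728 libraries and between 8.95 and 16.1 CPM in the nobiro6 libraries, and TAF12B is lower in nobiro6 than in bz1728 while nbr6-t1 and wt overlap.

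The interaction was called for 2066 of 18745 genes, 11% of those tested. It was above 0 for 902 genes (4.81%) and below 0 for 1164 (6.21%), and its median over all tested genes was −0.016. Among called genes the median size was 0.842 on the log2 scale, and 806 differed by at least 2-fold. In 23 of the called genes a group held few counts, and in 8 a group had 0 counts, so the fitted value of those 8 is no bound.

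Each background had a wide response of its own. In the bz1728 background 5938 genes (31.7%) were called between nobiro6 and bz1728, 2395 higher (12.8%) and 3543 lower (18.9%) in nobiro6. In the wild-type background 3836 genes (20.5%) were called between nbr6-t1 and wt, 1305 higher (6.96%) and 2531 lower (13.5%) in nbr6-t1. These differences share no library. Of the genes called in each, 2202 were called in both, 2007 in the same direction (518 higher, 1489 lower) and 195 in opposite directions. The 2007 made up 33.8% of the calls in the bz1728 background and 52.3% of those in the wild-type background. Across all genes tested, Pearson's r between the log2 fold changes was 0.48 and Spearman's rho 0.47, as a description over genes, which are not independent.

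**Figure D2:**
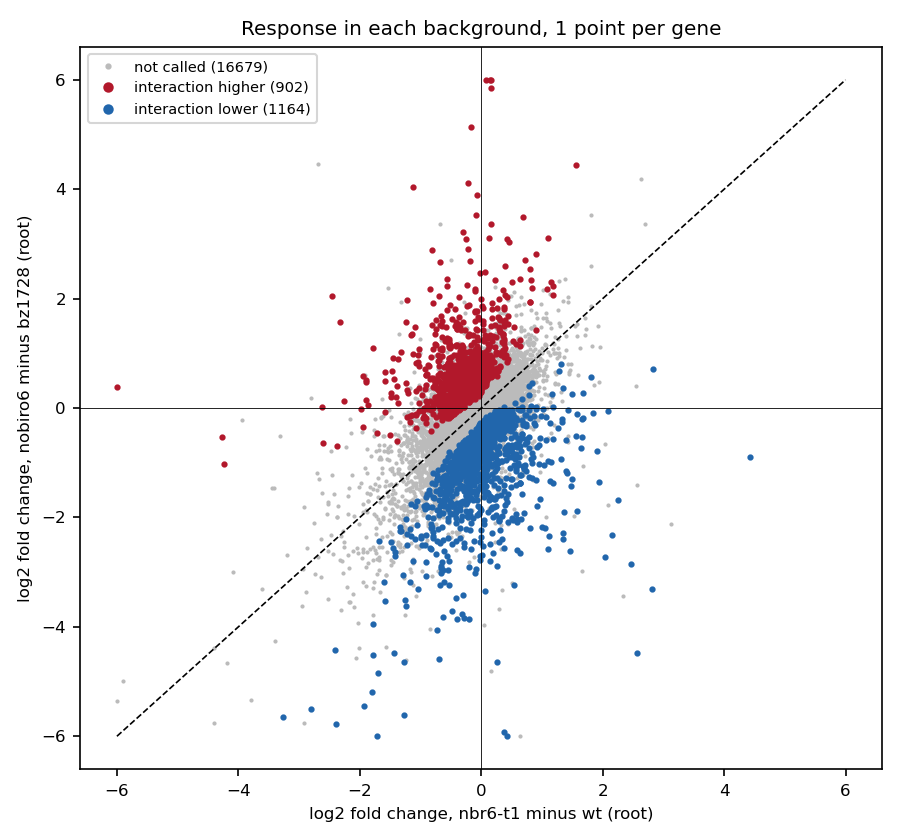
Log2 fold change of nobiro6 over bz1728 (vertical) against that of nbr6-t1 over wt (horizontal), 1 point per gene tested in root, drawn at ±6 where it lies beyond. The 902 genes with a called interaction above 0 (red) lie above the dashed line of equal response and the 1164 below 0 (blue) lie under it.

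Most called interactions came with a response in 1 background. Of the 2066 genes, 1180 (57.1%) were called between nobiro6 and bz1728 alone and 339 (16.4%) between nbr6-t1 and wt alone. A further 195 (9.44%) were called in opposite directions, 293 (14.2%) in the same direction with unequal size, and 59 (2.86%) in neither. The change in the bz1728 background was the larger of the pair for 1621 genes (78.5%). The interaction shares its libraries with both changes, so this split describes the called genes and is no separate evidence.

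The group means of the called genes were set side by side. On the scale of log2(CPM + 0.5), bz1728 stood furthest from the mean of the other 3 for 1322 of the 2066 called genes (64%), against 34% of all tested genes. All 4 bz1728 libraries lay above all 12 others for 1267 tested genes (6.76%) and below all 12 for 739 (3.94%). The bz1728 libraries enter the interaction with a minus sign, so choosing genes by it favours these patterns, and the following shares are a description. Among genes with an interaction below 0, 658 of 1164 (56.5%) had bz1728 above all 12. Among those with an interaction above 0, 403 of 902 (44.7%) had bz1728 below all 12. Read the other way, the bz1728 and wt roots differed at 7290 genes (38.9%), while nobiro6 and nbr6-t1 roots differed at 2626 (14%).

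Of the 10 named genes with the smallest p and an interaction above 0, 4 encode proteins of the cell wall and its surface. FLA8 encodes a fasciclin-like arabinogalactan protein, a glycoprotein of the cell surface. It held 50.5, 49.8, 50.9 and 46.2 CPM in nobiro6 and 35.8, 33.7, 37.4 and 28.9 CPM in bz1728, against 63.4, 74.6, 72.8 and 68.5 CPM in nbr6-t1 and 128, 132, 115 and 123 CPM in wt. It was higher in every nobiro6 library than in any of bz1728, and lower in every nbr6-t1 library than in any of wt, with an interaction of 1.37 ± 0.11 (edgeR adjusted p = 6.02e-11).

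AGP14 encodes a short arabinogalactan peptide and held 82.6, 80.7, 77.5 and 64.1 CPM in nobiro6, against 22.8, 20.1, 31.4 and 31.7 CPM in bz1728. It held 91.2, 100.2, 106 and 87.1 CPM in nbr6-t1, against 122, 124, 147 and 124 CPM in wt. The groups did not overlap in either background, bz1728 was the lowest of all, and the interaction was 2.003 ± 0.15 (adjusted p = 2.53e-10). AGP4, another arabinogalactan protein gene, had an interaction of 1.15 ± 0.10. XTH21, for an enzyme that cuts and rejoins xyloglucan in the wall, held 8.26, 6.40, 4.55 and 3.22 CPM in nobiro6, against 2.59, 1.51, 2.78 and 1.14 CPM in bz1728, and averaged 13.8 CPM in nbr6-t1 and 29.5 CPM in wt. Its interaction was 2.58 ± 0.29 (adjusted p = 1.02e-07), and again the changes were opposite.

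KCS10, which elongates very-long-chain fatty acids for surface lipids, had a different shape. It held 40.6, 36.6, 46.1 and 37.9 CPM in nobiro6, against 17.56, 13.9, 17.97 and 22.3 CPM in bz1728, while nbr6-t1 (41.6, 49.2, 37.0 and 32.7 CPM) and wt (41.0, 45.03, 48.9 and 43.0 CPM) overlapped. The interaction was 1.33 ± 0.16 (adjusted p = 6.24e-07). MLO12, of a family of membrane proteins known for powdery mildew susceptibility, had 1.31 ± 0.16 and followed the same shape. TPS1, which makes trehalose 6-phosphate, had 1.08 ± 0.11, bZIP7 had 1.43 ± 0.18 and LCR68, for a small cysteine-rich protein, had 1.52 ± 0.12. Symbol families with at least 10 tested members were counted after the values were seen. The interaction was above 0 for 6 of 13 laccase genes (LAC, 1 below) and 4 of 10 IRX genes of secondary wall synthesis (0 below). It was above 0 for 9 of 25 AGP genes (3 below), 4 of 13 KCS genes (0 below) and 4 of 14 FLA genes (0 below). Of all genes 4.81% were above 0. These families were picked for their shares above 0, and other wall families were not on that side. Of 23 XTH genes 5 were above and 5 below, and of 14 expansin genes (EXPA) 2 were above and 3 below. The called extensin genes EXT4, EXT6, EXT12 and EXT13 were all below 0, as were 6.21% of all genes. How many extensin genes were tested was not counted, so these calls give no share. EXT6 and EXT12 are also on the root hair list.

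BGAL9, for a β-galactosidase of the cell wall, had the smallest p among genes with an interaction below 0. It held 0.971, 0.183, 0.227 and 0 CPM in nobiro6 and 52.0, 45.9, 42.8 and 56.9 CPM in bz1728, against 77.5, 82.0, 82.7 and 95.2 CPM in nbr6-t1 and 64.0, 59.6, 66.7 and 60.2 CPM in wt. Its transcripts were near 0 in nobiro6 roots alone, and the interaction was -7.43 ± 0.30 (adjusted p = 5.71e-19). Shoots had the same pattern, with 0.844, 0.928, 1.66 and 0.879 CPM in nobiro6 and 45.2, 42.2, 47.7 and 50.4 CPM in bz1728.

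PYD4, of pyrimidine breakdown, held 18.21, 17.9, 15.9 and 23.62 CPM in nobiro6, against 52.0, 52.2, 48.6 and 70.9 CPM in bz1728. It held 32.1, 28.3, 33.0 and 28.8 CPM in nbr6-t1, against 18.25, 17.38, 18.6 and 22.5 CPM in wt. It was lower in nobiro6 and higher in nbr6-t1 with no overlap in either background, and the interaction was -2.24 ± 0.18 (adjusted p = 2.87e-11). The protease inhibitor gene TI1 also moved in opposite directions, with 7.28, 8.60, 5.91 and 11.1 CPM in nobiro6, against 39.0, 61.5, 37.2 and 59.5 CPM in bz1728, and 8.22, 6.20, 11.3 and 8.43 CPM in nbr6-t1, against 2.0, 3.67, 3.34 and 2.75 CPM in wt. Its interaction was -4.07 ± 0.34 (adjusted p = 1.55e-09).

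OPT3, a transporter that loads iron into the phloem, fell in both backgrounds by unequal folds. It held 14.1, 16.1, 14.6 and 17.2 CPM in nobiro6, against 101, 90.12, 85.2 and 87.8 CPM in bz1728, and 24.5, 20.5, 22.6 and 26.7 CPM in nbr6-t1, against 43.8, 45.2, 38.2 and 39.8 CPM in wt. The log2 fold change was -2.57 ± 0.10 in the bz1728 background and -0.84 ± 0.10 in the wild-type background, with an interaction of -1.73 ± 0.14 (adjusted p = 7.85e-11). UGT72E2, which glucosylates lignin precursors, likewise fell in both (-1.92 ± 0.08 and -0.63 ± 0.07) and had an interaction of -1.29 ± 0.11. The nitrilase gene NIT1 had -1.44 ± 0.12 and its neighbour in sequence NIT2 had -1.25 ± 0.12. These paralogs are similar enough that estimated counts can be split between them, so their separate values are uncertain. PCK1, for phosphoenolpyruvate carboxykinase of gluconeogenesis, had -1.27 ± 0.12, and the glutathione transferase gene GSTU4 had -2.36 ± 0.23. Among families counted after the values were seen, the interaction was below 0 for 6 of 10 GSTF genes (1 above), 10 of 25 GSTU genes (4 above), 8 of 27 BGLU β-glucosidase genes (2 above) and 12 of 52 WRKY transcription factor genes (5 above), against 6.21% of all genes below 0.

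UPR genes formed the list with the largest share of called genes. On the list of 10 stress-type UPR markers, which respond most when ER folding fails, the interaction was below 0 for 8 and above 0 for 0, with a median of −1.58 against −0.016 for all genes. In the bz1728 background 9 of the 10 were called lower in nobiro6 (median −1.63), against 18.9% of all genes, and in the wild-type background 1 was called higher in nbr6-t1 and 0 lower (median 0.17). For 9 of the 10 all bz1728 libraries lay above all 12 others, against 6.76% of all tested genes. The markers were listed with earlier results of these data known, and their direction is no independent evidence.

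PDIL1-2, a protein disulfide isomerase, held 182, 192, 179.6 and 192 CPM in nobiro6, against 405, 473, 396 and 391 CPM in bz1728. It held 98.4, 93.9, 83.8 and 78.7 CPM in nbr6-t1, against 89.8, 89.8, 72.7 and 84.8 CPM in wt. The nobiro6 libraries lay below all bz1728 libraries and above all of wt, whereas nbr6-t1 and wt overlapped, and the interaction was -1.24 ± 0.11 (adjusted p = 4.2e-10).

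ERO1, the oxidase that recharges disulfide isomerases, held 12.6, 13.7, 14.3 and 17.9 CPM in nobiro6, against 53.7, 64.7, 53.9 and 48.0 CPM in bz1728. It held 11.1, 9.03, 7.62 and 10.9 CPM in nbr6-t1, against 13.0, 9.30, 8.57 and 9.57 CPM in wt. It fell in nobiro6 by 1.95 on the log2 scale and the wild-type background gave -0.04 ± 0.16, with an interaction of -1.91 ± 0.21 (adjusted p = 6.53e-08). ERDJ3A, a co-chaperone of BiP, held 62.9, 55.1, 58.2 and 65.9 CPM in nobiro6 and 154, 157, 143 and 139 CPM in bz1728, and its interaction was -1.08 ± 0.20 (adjusted p = 0.000702).

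NAC103, a UPR transcription factor, held 5.83, 6.59, 5.23 and 7.88 CPM in nobiro6, against 29.8, 42.7, 27.8 and 31.2 CPM in bz1728. It held 2.13, 1.24, 0.924 and 1.40 CPM in nbr6-t1, against 0, 0.979, 0.836 and 0.262 CPM in wt. The lines moved in opposite directions, with log2 fold changes of -2.40 ± 0.19 in nobiro6 and 1.35 ± 0.48 in nbr6-t1 (adjusted p = 0.0432), and the interaction was -3.75 ± 0.53 (adjusted p = 5.65e-06). BZIP60, the transcription factor of the IRE1 arm, held 96.9, 89.1, 89.8 and 88.8 CPM in nobiro6, against 144, 150.1, 136 and 158 CPM in bz1728, and its interaction was -0.88 ± 0.11. NAC089, a membrane-bound UPR factor, had -0.90 ± 0.20 and the COPII vesicle GTPase gene SARA1A had -2.32 ± 0.60. SARA1A lost its call without replicate 2 of nbr6-t1 (adjusted p = 0.0981).

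BIP3, the stress-induced copy of the chief ER chaperone BiP, held 2.43, 1.28, 1.59 and 1.79 CPM in nobiro6 and 21.4, 21.2, 13.9 and 11.2 CPM in bz1728. It held 0.305, 0, 0.231 and 0 CPM in nbr6-t1 and 0 in all wt libraries. Every bz1728 library lay above every other library, and levels were at least 139-fold higher in bz1728 and at least 14.5-fold higher in nobiro6 than in wt. The interaction passed the test (adjusted p = 0.0114), but with 0 counts in wt its fitted size is no bound, and the call was lost without replicate 1 of nbr6-t1 (adjusted p = 0.152).

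SEC31A, a coat protein of vesicles that leave the ER, held 214, 219, 174 and 169.7 CPM in nobiro6, against 802, 904, 679 and 777 CPM in bz1728. It held 0.609, 0.531, 0.231 and 0 CPM in nbr6-t1, against 0.250, 0, 0.209 and 0.655 CPM in wt. It fell in nobiro6 by 2.02 on the log2 scale (adjusted p = 1.66e-12), but at 7 counts in wt and 8 in nbr6-t1 the interaction of -2.52 ± 0.998 did not pass (adjusted p = 0.123). It passed with DESeq2 (adjusted p = 0.0116), with the replicate number as a block (0.0386) and without replicate 4 of wt (0.037). TIN1 held 3.40, 5.12, 6.14 and 7.52 CPM in nobiro6, against 4.03, 6.18, 3.64 and 8.004 CPM in bz1728, and averaged 11.8 CPM in nbr6-t1 and 12.1 CPM in wt. It was low in both lines of the bz1728 background, and its interaction was 0.06 ± 0.32 (adjusted p = 0.948).

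**Figure D3:**
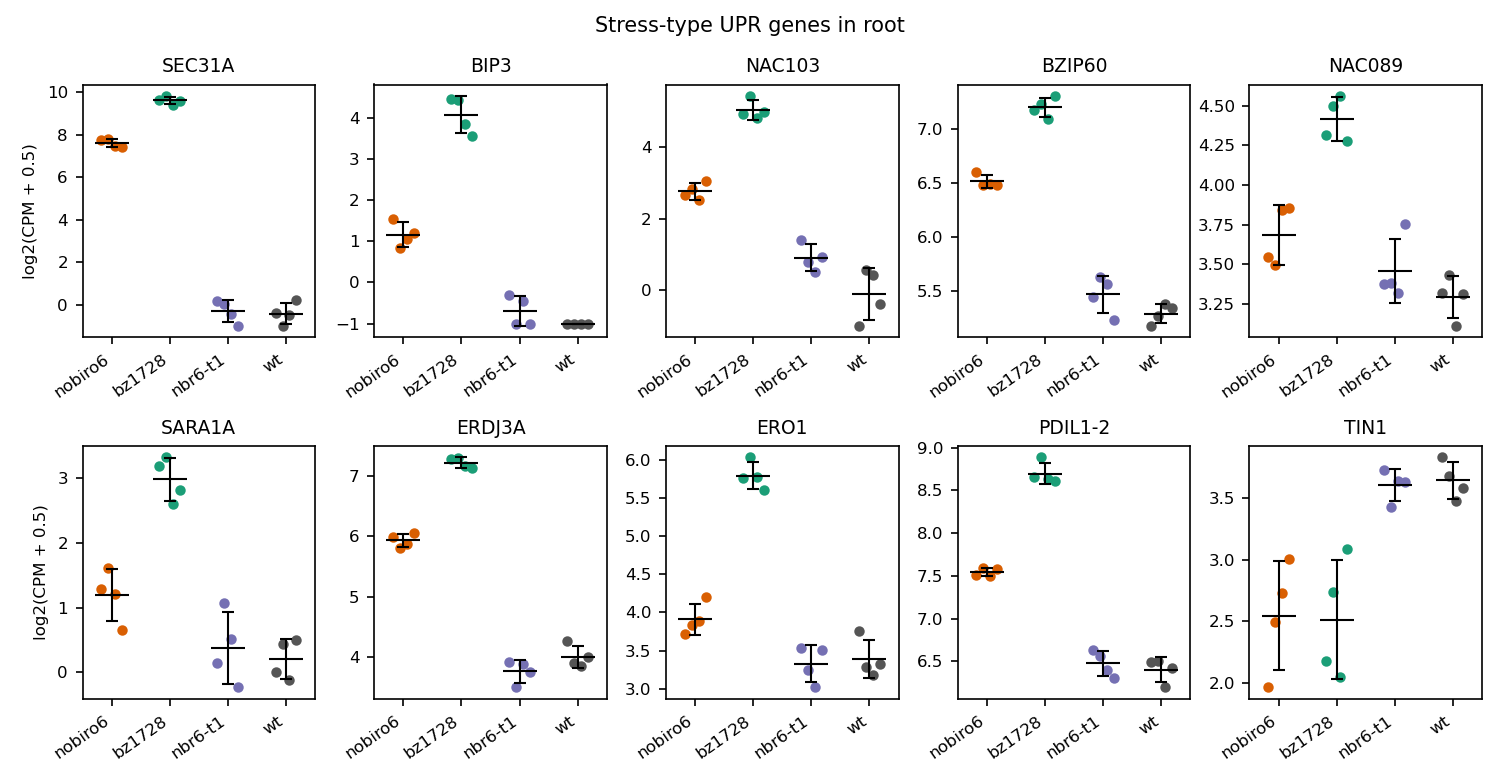
Level of the 10 stress-type UPR markers in each of 16 root libraries (points, log2 of CPM + 0.5) by genotype, with the mean and SD of 4 libraries as bars. The bz1728 libraries are the highest in 9 of 10 panels with nobiro6 next in mean, and TIN1 is low in both nobiro6 and bz1728.

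The constitutive machinery of the ER had smaller shares of calls, beside 6.21% of all genes below 0. Of 20 ER folding genes the interaction was below 0 for 6 and above 0 for none, with a list median of −0.03. The 4 with the smallest p were PDIL2-3 (-1.02 ± 0.11, adjusted p = 1.81e-08), PDIL2-2 (-0.92 ± 0.13), BIP2 (-0.62 ± 0.10) and AT5G07340 (-0.69 ± 0.12). BIP2, a constitutive BiP gene, held 405, 356, 332 and 373 CPM in nobiro6, against 536, 573, 565 and 516 CPM in bz1728, and 666, 629.6, 568 and 612 CPM in nbr6-t1, against 676, 624, 509.9 and 603 CPM in wt. The nobiro6 libraries were the lowest of all, and nbr6-t1 and wt overlapped. Of 14 genes of ER-associated degradation and COPII transport the interaction was below 0 for 4 and above 0 for 0. These were OS9 (-0.60 ± 0.13) and HRD3A (-0.42 ± 0.10), which select misfolded proteins for degradation, SARA1B (-0.41 ± 0.09), a COPII GTPase, and AT2G30050 (-0.32 ± 0.10), whose call was lost in 16 of 25 alternative settings. On the list of 10 UPR regulators, 4 were below 0 and BZIP28 was the 1 above. The 4 were NAC062 (-0.92 ± 0.13) and BZIP60, NAC103 and NAC089, which are already counted among the stress-type UPR markers.

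Motif matches were counted in the promoter windows as a description, where a match is not a bound site. ERSE-I was in 0.878% of the 18669 windows of tested genes, in 17 of 1164 windows (1.46%) of genes with an interaction below 0 and in 1 of 894 (0.112%) with one above 0. It was in 5 of 20 windows of the ER folding list, those of CRT1, HSP90.7, P58IPK, PDIL1-1 and EBS1, which were named after their values were seen. None of these had a called interaction, for example CRT1 with 0.25 ± 0.10 (adjusted p = 0.0936) and HSP90.7 with 0.01 ± 0.10 (adjusted p = 0.979). UPRE-I was in 1.55% of all windows, 0.945% of those below 0 and 2.24% of those above 0, and the G-box in 7.35%, 8.16% and 5.48%. P1BS (GNATATNC), the motif of the phosphate starvation factor PHR1, was in 5.38% of all windows and in 6 of 21 windows of the phosphate starvation list. For that list the interaction was below 0 for 4 and above 0 for 1 of 21.

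Of the lists of hormone genes, jasmonate had the most calls. Of 26 tested genes of synthesis and response to this wound hormone, the interaction was below 0 for 13 and above 0 for 0, with a median of −0.82, against 6.21% of all genes below 0. In nobiro6 19 were called lower and 1 higher than in bz1728, and in nbr6-t1 1 was called lower and 1 higher than in wt. Of all genes 18.9% were lower in nobiro6, and 13.5% were lower and 6.96% higher in nbr6-t1. MYC2, the master transcription factor of the pathway, held 93.7, 142, 106 and 111 CPM in nobiro6, against 153, 176, 160.5 and 174 CPM in bz1728. It held 83.8, 97.6, 104 and 93.8 CPM in nbr6-t1, against 85.0, 96.7, 81.9 and 86.4 CPM in wt. The bz1728 libraries were above all others, and the interaction was -0.65 ± 0.13 (adjusted p = 0.000652). The synthesis genes OPR3 (-0.84 ± 0.18), AOC3 (-0.80 ± 0.17) and AOC4 (-0.58 ± 0.13) had values of the same sign. AOC3 and AOC4 belong to a family of similar genes, and their counts can be split between copies. For 17 of the 26 genes all bz1728 libraries lay above all 12 others, against 6.76% of all tested genes.

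Other hormone lists had fewer calls, to be read against 6.21% of all genes below 0 and 4.81% above. Of 19 ethylene genes the interaction was below 0 for 5 and above 0 for none. HEL, a hevein-like defence protein gene that ethylene induces, held 89.4, 90.2, 83.2 and 119.9 CPM in nobiro6, against 236, 205, 245 and 256 CPM in bz1728, and 134, 156, 198 and 166 CPM in nbr6-t1, against 197, 202, 224 and 213 CPM in wt. It fell in both mutants, by more in nobiro6, where the groups did not overlap, while the nbr6-t1 and wt ranges just met, with an interaction of -0.95 ± 0.16 (adjusted p = 0.00043). ARGOS, a regulator of ethylene sensitivity, had -1.87 ± 0.40, and the basic chitinase gene HCHIB had -0.74 ± 0.17. Of 18 auxin response genes 4 were below 0 and 0 above. GH3.3, which conjugates auxin to amino acids, held 0.486, 2.56, 1.59 and 0 CPM in nobiro6, against 25.5, 20.1, 17.3 and 14.0 CPM in bz1728, while nbr6-t1 (1.07, 1.59, 1.39 and 3.51 CPM) and wt (1.0, 3.304, 1.88 and 1.44 CPM) overlapped. The interaction was -3.55 ± 0.81 (adjusted p = 0.00582). LBD16, a factor of lateral root initiation, had -1.28 ± 0.26, and the auxin repressor genes IAA17 and IAA2 had -0.70 ± 0.10 and -0.51 ± 0.11. Of 13 salicylic acid and immunity genes 1 was below 0, SARD1 (-3.46 ± 0.78), a share (7.69%) near that of all genes, and of 12 genes of abscisic acid, cold and drought 2 were above 0, the dehydrins COR47 (0.80 ± 0.13) and ERD10 (0.73 ± 0.14).

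Most iron deficiency regulators fell in both backgrounds. Of 12 tested regulators of the iron deficiency response, 11 were called lower in nobiro6 than in bz1728 (median −2.19) and 7 lower in nbr6-t1 than in wt (median −1.29), against 18.9% and 13.5% of all genes, but the interaction was called for 2 (16.7%, beside 11% of all genes). FRU (also named FIT), the master activator of root iron uptake, was the exception in direction. It held 41.0, 24.9, 39.1 and 21.5 CPM in nobiro6, against 13.8, 7.56, 14.6 and 11.4 CPM in bz1728, and 54.1, 55.2, 66.5 and 54.1 CPM in nbr6-t1, against 77.0, 68.4, 86.3 and 72.4 CPM in wt. It was higher in nobiro6 than in bz1728 and its change in nbr6-t1, -0.40 ± 0.15, was not called (adjusted p = 0.0727), with an interaction of 1.85 ± 0.26 (adjusted p = 8.28e-05). Its partner BHLH39 held 5.58, 6.22, 3.64 and 11.8 CPM in nobiro6, against 50.2, 30.4, 39.2 and 39.2 CPM in bz1728, and 11.7, 8.68, 9.93 and 14.0 CPM in nbr6-t1, against 28.5, 32.3, 28.6 and 26.0 CPM in wt. It was lower in both mutants, and the interaction was -1.22 ± 0.32 (adjusted p = 0.0124).

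Of 17 iron uptake and transport genes the interaction was below 0 for 7 and above 0 for 1 (6.21% and 4.81% of all genes). Of the 17, 13 were called lower in nobiro6 and 11 in nbr6-t1, against 18.9% and 13.5% of all genes. F6'H1, which makes the iron-mobilizing coumarin scopoletin, had -0.69 ± 0.14. The transporter genes IRT2 and NRAMP4 had -1.15 ± 0.26 and -0.54 ± 0.13. The ferric reductase FRO2 and the iron importer IRT1, picked after their values were seen, fell in both backgrounds. IRT1 held 66.8, 12.8, 38.2 and 61.9 CPM in nobiro6, against 202, 78.0, 179 and 118 CPM in bz1728, and 73.4, 53.1, 59.6 and 67.8 CPM in nbr6-t1, against 338, 297, 161 and 187 CPM in wt. No nobiro6 library reached the lowest of bz1728, no nbr6-t1 library reached the lowest of wt, and the interaction was 0.20 ± 0.58 (adjusted p = 0.904). FRO2 had 0.31 ± 0.76 (adjusted p = 0.88). With standard errors of this size an unequal response of more than 1 on the log2 scale could be missed. Of 7 iron storage genes 1 was above 0, the vacuolar iron transporter-like gene VTL5 (1.84 ± 0.31).

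The called interactions of root hair genes were all below 0. Of 19 tested, the interaction was below 0 for 11 and above 0 for 0 (median −0.67), against 6.21% of all genes below 0. In nobiro6 10 were called lower and none higher than in bz1728, and in nbr6-t1 9 were called higher and none lower than in wt, against 18.9% of all genes lower in nobiro6 and 6.96% higher in nbr6-t1. Called in both were 3 members, RHD6, PRP1 and EXT6, each in opposite directions, so most members counted in one contrast were not counted in the other. PRP1, a proline-rich wall protein of root hairs, held 164, 186, 114 and 203 CPM in nobiro6, against 188, 253, 217 and 311 CPM in bz1728. It held 30.5, 40.2, 54.0 and 33.7 CPM in nbr6-t1, against 13.2, 14.7, 9.61 and 11.5 CPM in wt. The nobiro6 and bz1728 ranges overlapped, every nbr6-t1 library lay above every wt library, and the interaction was -2.20 ± 0.32 (adjusted p = 0.000295).

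RHD6, the transcription factor that starts hair growth, held 22.3, 28.9, 25.9 and 27.9 CPM in nobiro6, against 28.4, 38.9, 32.1 and 32.6 CPM in bz1728, and 25.3, 26.4, 25.2 and 21.1 CPM in nbr6-t1, against 15.5, 18.1, 10.9 and 13.9 CPM in wt. Again the wild-type background showed the clearer separation, and the interaction was -1.07 ± 0.19 (adjusted p = 0.000134). The extensin genes EXT12 (-2.001 ± 0.28) and EXT6 (-1.11 ± 0.18) code for repetitive wall proteins, whose counts can be split between family members. Leaving out 1 library at a time, 9 to 15 members were called. All 5 tested genes of epidermal cell fate, which set where hairs form, were without a called interaction. With 11% of all genes called, 0 of 5 is no result about these genes. The summed level of the 19 hair genes was 2094 to 3224 CPM in nobiro6, 3544 to 5179 in bz1728, 1421 to 1643 in nbr6-t1 and 1353 to 1443 in wt, with no member at 0. Whether the share of hair cells differed was not tested.

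Suberin genes were the list with the most calls above 0. Of 18 genes for this waxy barrier of the endodermis the interaction was above 0 for 7 and below 0 for none (median 0.55). Of all genes 4.81% were above 0. In nobiro6 6 were called higher and 1 lower, against 12.8% and 18.9% of all genes. In nbr6-t1 0 were called higher and 3 lower, against 6.96% and 13.5%, so the 3 are a share near that of all genes. GPAT5, which joins fatty acids to glycerol for suberin, held 23.1, 21.6, 26.1 and 20.4 CPM in nobiro6, against 13.5, 11.8, 16.3 and 15.4 CPM in bz1728, and 35.03, 32.2, 54.5 and 33.4 CPM in nbr6-t1, against 36.5, 40.5, 46.6 and 45.5 CPM in wt. The bz1728 libraries were the lowest, nobiro6 lay between them and the other lines, and the interaction was 0.85 ± 0.20 (adjusted p = 0.00386). KCS20 (0.83 ± 0.14), FAR5 (0.85 ± 0.21) and the exporter ABCG6 (1.16 ± 0.27) had the same sign. The count ran from 5 to 10 when 1 library was left out. Of 9 Casparian strip genes 3 were below 0 and 1 above, beside 6.21% and 4.81% of all genes. The smallest p was that of MYB36 (-0.79 ± 0.15), the factor that starts endodermal differentiation. ESB1 (-0.32 ± 0.10), GSO1 (-0.38 ± 0.12) and CASP5 (1.14 ± 0.37) lost their calls in 12, 13 and 7 of 25 alternative settings, and 1 to 4 members were called when 1 library was left out.

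**Figure D4:**
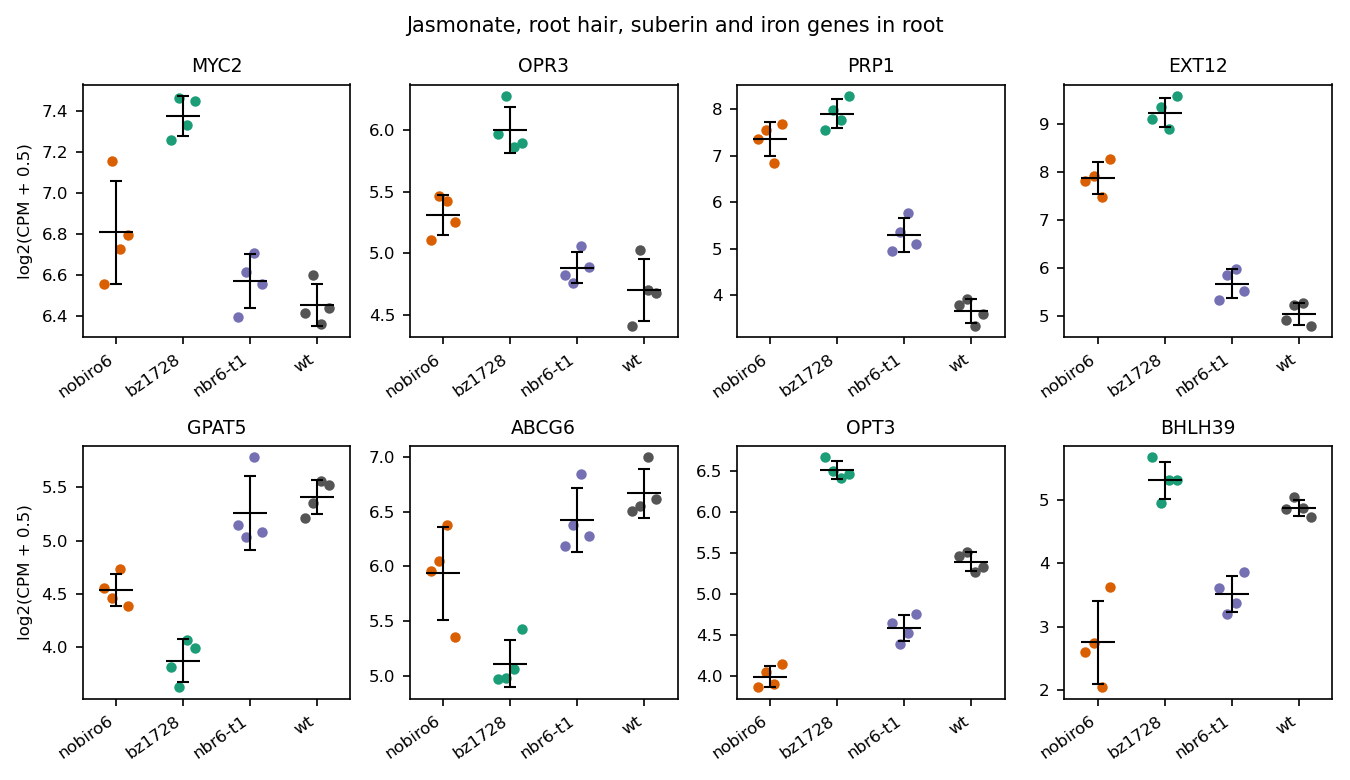
Level of 8 genes of jasmonate (MYC2, OPR3), root hairs (PRP1, EXT12), suberin (GPAT5, ABCG6) and iron (OPT3, BHLH39) in each of 16 root libraries (points, log2 of CPM + 0.5) by genotype, with the mean and SD of 4 libraries as bars. The bz1728 libraries are the highest for MYC2, OPR3, EXT12 and OPT3 and the lowest for GPAT5, and PRP1 is lowest in wt.

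Nutrient and transport lists held calls of both signs, and of all genes 4.81% were above and 6.21% below 0. On the phosphate starvation list, RNS1, a secreted ribonuclease, held 3.88, 4.76, 7.96 and 4.30 CPM in nobiro6, against 24.3, 34.8, 16.5 and 30.6 CPM in bz1728, and 5.18, 3.36, 6.004 and 5.62 CPM in nbr6-t1, against 1.25, 1.71, 0.209 and 0.917 CPM in wt. It was lower in nobiro6 and higher in nbr6-t1 without overlap (interaction -4.48 ± 0.53, adjusted p = 3.87e-06). PHT1;4, PHO1;H1 and the phosphatase gene PS2 had -0.995 ± 0.17, -0.93 ± 0.24 and -2.22 ± 0.47, and 4 to 9 of the list were called when 1 library was left out. Of 15 sulfur deficiency genes 4 were below 0 and 1 above (3 to 6 called when 1 library was left out). Of the 15, 12 were called lower in nobiro6 and 10 in nbr6-t1, against 18.9% and 13.5% of all genes. The sulfate transporter gene SULTR2;1 held 18.7, 16.5, 12.5 and 14.3 CPM in nobiro6, against 145, 147, 139.7 and 128 CPM in bz1728, and 43.2, 29.8, 34.4 and 41.1 CPM in nbr6-t1, against 81.8, 97.9, 68.5 and 83.1 CPM in wt. It fell in both, by more in nobiro6, and the interaction was -1.999 ± 0.26 (adjusted p = 7.73e-05). APR1, of sulfate reduction, and LSU2, a marker of sulfur shortage, had -0.76 ± 0.12 and -0.91 ± 0.23. The interaction of BGLU28, -2.52 ± 0.76, lost its call in 5 of 25 settings.

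Of 11 nitrogen genes 3 were above and 2 below 0 (3 to 5 called when 1 library was left out). The nitrate reductase genes NIA1 and NIA2 had -0.56 ± 0.12 and -0.84 ± 0.12, and the ammonium transporter genes AMT1;3 and AMT1;1 had 1.18 ± 0.23 and 0.71 ± 0.21, the last with its call lost in 11 of 25 settings. Of 18 aquaporin genes, for water channels, 6 were above 0 and 1 below. TIP2;3 held 81.1, 66.6, 46.1 and 38.3 CPM in nobiro6, against 42.2, 20.3, 38.5 and 33.7 CPM in bz1728, and 46.4, 48.0, 56.1 and 44.2 CPM in nbr6-t1, against 83.3, 111, 117 and 98.0 CPM in wt. The first pair overlapped and the second did not, and the interaction was 1.90 ± 0.33 (adjusted p = 0.00133). TIP1;1 and PIP1;3 had 0.59 ± 0.11 and 0.59 ± 0.12, and PIP2;5 had -1.48 ± 0.27. Of 8 SWEET sugar exporter genes 3 were above 0 (SWEET2, SWEET11 and SWEET13) and SWEET15 below, with 2 to 4 called when 1 library was left out. SWEET11 lost its call in 17 of 25 settings.

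Root-specific metabolism was represented by the triterpene clusters. Of 6 genes 4 were below 0 and 0 above (median −1.32), against 6.21% of all genes below 0. THAS1, the thalianol synthase, held 136, 254, 135 and 126 CPM in nobiro6, against 398, 577, 438 and 510.5 CPM in bz1728, while nbr6-t1 (78.6, 128, 181 and 127 CPM) and wt (106, 129, 112 and 133 CPM) overlapped. The interaction was -1.62 ± 0.36 (adjusted p = 0.00732). THAD had -1.42 ± 0.34, AT5G47980 had -2.16 ± 0.35, and THAH (-1.10 ± 0.33) lost its call in 19 of 25 settings. Of 11 genes of ER bodies and jacalin lectins 4 were below 0 and 0 above, JAL30, JAL31, JAL33 and JAL34, from -1.04 ± 0.18 for JAL33 to -0.54 ± 0.11 for JAL34. Of 6 tested flavonoid genes (11 listed) 2 were above 0, against 4.81% of all genes. These were CHI (0.95 ± 0.17) and F3H (0.79 ± 0.18), which act early in the pathway.

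Lists of housekeeping processes had few calls, near or under the 11% of all genes. Of 11 cytosolic heat shock genes 1 was above 0, HSP70 (0.89 ± 0.23), and of 22 cell cycle genes 1 was above 0, the cytokinesis syntaxin gene KN (0.40 ± 0.13), with 0 to 2 called when 1 library was left out. Of 28 photosynthesis genes and 7 regulators of greening, none had a called interaction. The photosynthesis genes stand for shoot tissue or greening in the root samples. Of the 28, 20 were called higher in nobiro6 than in bz1728 and 17 higher in nbr6-t1 than in wt, against 12.8% and 6.96% of all genes, and none was at 0 in any group. Their summed level was 807 to 997 CPM in nobiro6, 379 to 711 in bz1728, 1130 to 1314 in nbr6-t1 and 847 to 912 in wt roots, against 75230 to 103600 CPM in the shoot libraries. Its part in the root results was not tested.

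**Figure D5:**
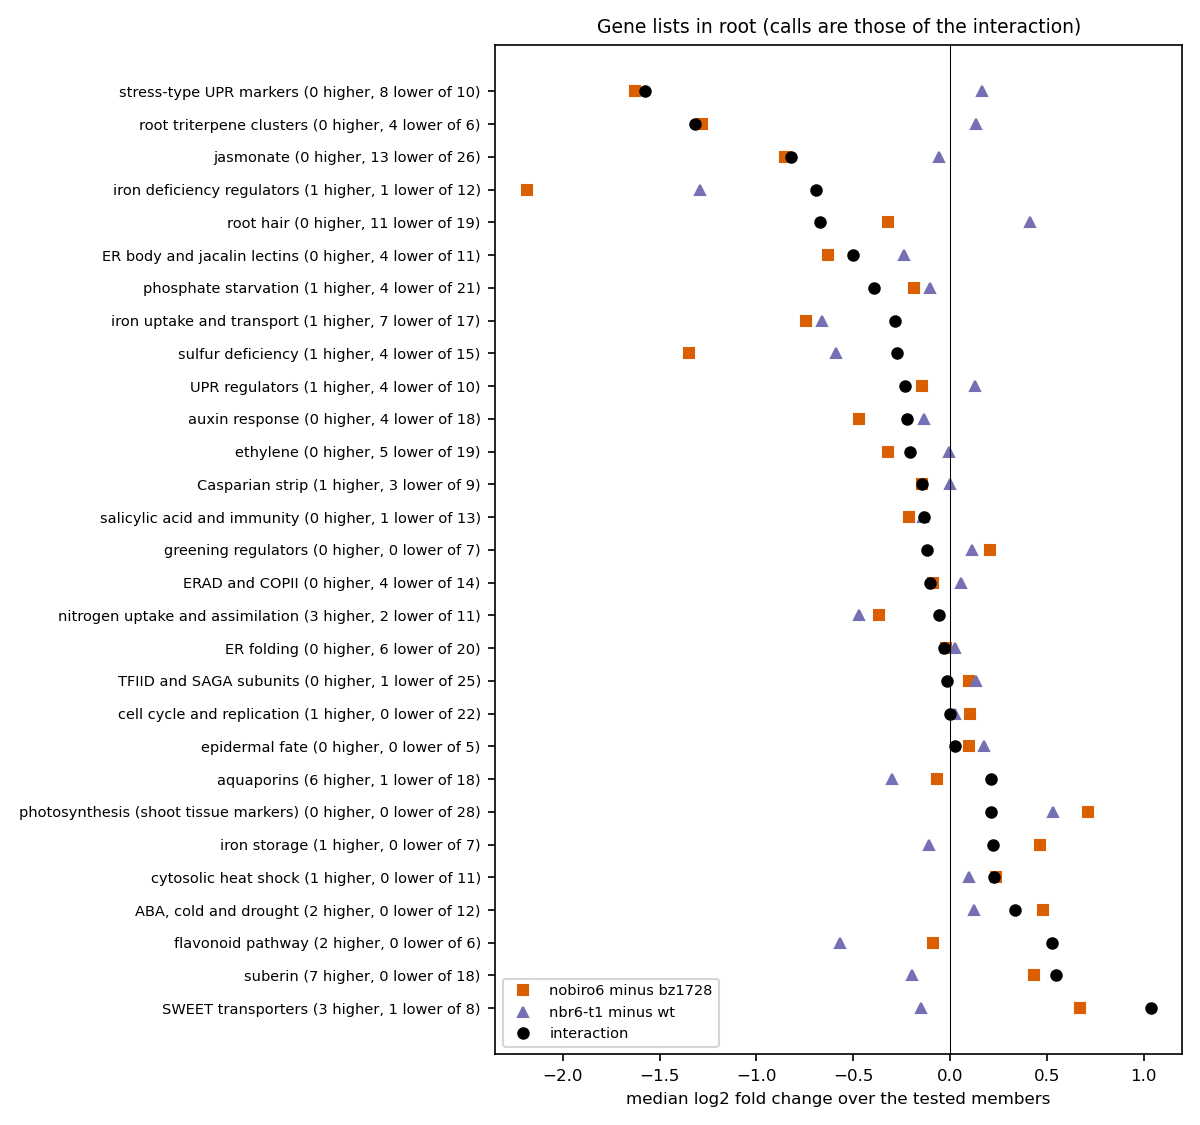
Median log2 fold change over the tested members of each gene list in root, for nobiro6 minus bz1728 (squares), nbr6-t1 minus wt (triangles) and the interaction (circles), with the called members beside each name. The interaction median is −1.58 for the stress-type UPR markers, where 8 of 10 were called below 0, and 0.55 for suberin, where 7 of 18 were called above 0.

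The same contrast was taken in shoots, in other libraries of the same lines. It was called for 221 of 17382 genes (1.27%), at a biological coefficient of variation of 0.119. That count depended on single libraries, with 118 without replicate 2 of shoot nbr6-t1, 128 without replicate 1 of nobiro6, 134 without replicate 2 of bz1728 and 367 without replicate 3 of nobiro6, and it was 464 with DESeq2. Of the 2066 root calls 1583 were tested in shoot, and 45 of them were called there, 40 with the same sign. The 45 are 2.84% of the root calls tested in shoot and 20.4% of the shoot calls. Over the 1583, 54.7% had the same sign in shoot, against 51.6% of all 16240 genes tested in both tissues, and across those 16240 Pearson's r was 0.086. The difference between the root and shoot interactions was itself called for 593 of 20015 genes (2.96%), among them 400 of the root calls. The root interaction is part of this difference, so choosing genes by it favours such calls.

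ACC2, a plastid acetyl-CoA carboxylase, was called in both tissues. In roots it held 33.5, 39.9, 30.2 and 48.3 CPM in nobiro6, against 136, 175, 141 and 158 CPM in bz1728, and 15.5, 20.2, 21.2 and 20.02 CPM in nbr6-t1, against 12.5, 14.7, 10.7 and 11.7 CPM in wt. The bz1728 libraries were the highest, and the interaction was -2.62 ± 0.32 in root and -1.75 ± 0.29 in shoot (adjusted p = 0.00465). NIP5;1, the boric acid channel of the root surface, had -1.05 ± 0.13 in root and -2.23 ± 0.47 in shoot, and the actin-related protein gene ARP9 had 1.12 ± 0.19 and 0.84 ± 0.18. NAC103 was the 1 stress-type UPR marker called in both, with -2.49 ± 0.60 in shoot. The shoot value of NAC103 rests on few counts in the wild-type background. It held 0.972, 2.25, 0.400 and 0.421 CPM in nbr6-t1 shoots, against 0.505, 0.331, 0.474 and 0.944 CPM in wt shoots. NIP5;1 was low in wt shoots too, at 2.65, 2.65, 1.58 and 2.70 CPM. These genes were picked from the 45 after their values were seen. AT1G75945 was at 0 in all root nbr6-t1 libraries, against 7.05 CPM in nobiro6, 5.46 CPM in bz1728 and 7.60 CPM in wt, so that wt was at least 49.1-fold and nobiro6 at least 45.6-fold above nbr6-t1.

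For other UPR genes root and shoot differed. ERO1 had an interaction of -1.91 ± 0.21 in root and 0.20 ± 0.47 in shoot, a difference of -2.14 ± 0.47 (edgeR adjusted p = 0.00635). PDIL1-2 had -0.30 ± 0.26 in shoot and a difference of -0.98 ± 0.28 (adjusted p = 0.0461). For BZIP60 the shoot value was -0.05 ± 0.16 and the difference -0.85 ± 0.19 (adjusted p = 0.00724). Of the 8 called stress-type UPR markers, these 3 differed between tissues by the test of the difference, against 2.96% of all genes. The 8 were called on the root interaction, which is part of this difference. Choosing them so favours a called difference, and the count is a description.

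The line taf12-t1 was put in the place of nbr6-t1 as a side comparison. TAF12, the gene its name points to, averaged 20.6 ± 3.89 CPM in taf12-t1 roots and 10.2 ± 0.512 CPM in wt roots (SD, n = 4 each), and was higher in taf12-t1 by 1.005 ± 0.17 on the log2 scale (edgeR adjusted p = 8.83e-06). Transcripts of the gene were thus not lower in the root libraries of this label. In shoots TAF12 averaged 6.97 ± 1.55 CPM in taf12-t1 and 9.95 ± 0.975 CPM in wt (SD, n = 4 each). Every taf12-t1 shoot library lay below every wt shoot library. The interaction (nobiro6 minus bz1728) minus (taf12-t1 minus wt) in root was called for 7616 genes (40.6%), and all 10 stress-type UPR markers passed. PDIL1-2 had -1.66 with taf12-t1, beside -1.24 with nbr6-t1, and ERO1 had -2.07, beside -1.91. The interactions share 12 libraries, so their likeness supports nothing. Across the 5 chromosomes the share of called genes ran from 10.2 to 11.8%.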

How the data were processed

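The 40 mRNA-seq libraries cover 5 genotypes in root and in shoot, with 4 in each group. Per the submitters' processing notes, reads were trimmed with Trimmomatic 0.39 and quantified with kallisto 0.44.0. Per transcript, the authors deposited expected counts, which are estimated reads not scaled for depth, and 97.7 to 98.5% of them were whole within 1e-06 in the 16 root libraries. The deposited TPM values, scaled by the authors for length and depth, summed to 1000000 per library and were not tested. The genome build is not given in the sources used here. Of 27655 transcripts, 27444 were found in RefSeq TAIR10.1, each with the same length.

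After rounding, the tests were run on expected counts in edgeR 4.0.16 (limma 3.58.1, R 4.3.3) by robust, two-sided quasi-likelihood F-tests after TMM scaling and filterByExpr (count 10, total 15). One mean per genotype was fitted over all 20 libraries of root or of shoot, and over all 40 for root minus shoot. A call is a Benjamini-Hochberg adjusted p under 0.05 over all genes tested. The approximate standard error, the size of the log2 fold change over the square root of its F value, can be too small where counts are few. Bounds use a floor of 3 counts over a group and cover counting error only. The method was tested on simulated data.

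The contrast, its members and the 30 gene lists (466 entries, 459 loci) were chosen with earlier results of these data known. Lists are described by counts and medians, read against the shares of all genes called. Named genes are the 4 mutated genes with up to 3 loci either side, 10 genes in each direction, chosen by smallest adjusted p (with a symbol and a mean log2 CPM of at least 1), the called members of each list with the smallest adjusted p (up to 4), and all stress-type UPR markers. Alternatives were DESeq2 1.42.0, other size factors, no filter, a replicate block, fewer libraries and stricter thresholds. The main fit did not pair libraries by replicate number. One further named gene is not reported here.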

Additional observations from a re-analysis of the deposited data

Results flagged for a closer look

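In 32 of 500 sets of a named gene and a root group, 1 library stood far from the other 3, with a gap that was above Dixon's critical value for 4 libraries as a share of the group's range (6.4% of sets). Chance flags about 1 in 20 groups. Values are CPM. The library was low for BZIP28 in nobiro6 replicate 4 (8.95, the other 3 15.1 to 16.1), PHO1;H1 in nobiro6 replicate 3 (9.32, the other 3 14.3 to 14.4), ESB1 in nobiro6 replicate 2 (94.8, the other 3 105), HCHIB in nbr6-t1 replicate 1 (27.9, the other 3 35.8 to 37.2), HSP70 in bz1728 replicate 2 (192, the other 3 221 to 226) and KN in wt replicate 3 (37.4, the other 3 43.9 to 44.3). Low values were also held by APR1 in nbr6-t1 replicate 1 (216, the other 3 257 to 263), SWEET2 in wt replicate 2 (24.4, the other 3 30.8 to 31.8), UBP5 in nobiro6 replicate 4 (26.5, the other 3 39.3 to 41.8), AT2G40935 in nobiro6 replicate 2 (4.94, the other 3 7.16 to 7.5) and AT2G40960 in wt replicate 1 (4.25, the other 3 6.85 to 7.10). The library was high for AGP14 in wt replicate 3 (147, the other 3 122 to 124), AGP4 in bz1728 replicate 3 (127, the other 3 104 to 107), XTH21 in wt replicate 3 (33.8, the other 3 27.8 to 28.2), PYD4 in bz1728 replicate 4 (70.9, the other 3 48.6 to 52.2), PDIL1-2 in bz1728 replicate 2 (473, the other 3 391 to 405) and BZIP60 in nobiro6 replicate 1 (96.9, the other 3 88.8 to 89.8). High values were also held by NAC089 in nbr6-t1 replicate 4 (13.0, the other 3 9.47 to 9.92), AT5G07340 in bz1728 replicate 3 (49.4, the other 3 44.0 to 44.3), FRU in nbr6-t1 replicate 3 (66.5, the other 3 54.1 to 55.2), GPAT5 in nbr6-t1 replicate 3 (54.5, the other 3 32.2 to 35.03), GSO1 in bz1728 replicate 4 (93.2, the other 3 71.7 to 75.1) and CASP5 in nobiro6 replicate 3 (17.3, the other 3 10.7 to 11.2). Further high values were those of BGLU28 in bz1728 replicate 1 (7.34, the other 3 5.77 to 6.003), THAS1 in nobiro6 replicate 2 (254, the other 3 126 to 136), THAD in nobiro6 replicate 2 (473, the other 3 233 to 263), PIP1;3 in nbr6-t1 replicate 3 (578, the other 3 496 to 508), JAL33 in nobiro6 replicate 2 (438, the other 3 307 to 315) and LOX3 in nbr6-t1 replicate 1 (0.305, the other 3 0). The remaining high values were those of TRFL3 in nobiro6 replicate 3 (6.59, the other 3 4.13 to 4.39), AT3G10080 in bz1728 replicate 1 (16.3, the other 3 10.8 to 11.7) and MEE67 in nobiro6 replicate 4 (9.66, the other 3 8.01 to 8.18). Replicate 2 of nobiro6 held 5 of the 32 and no other library more than 3.

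For 31 of 126 named genes the interaction differed between root and shoot by edgeR's test of the difference itself, against 593 of 20015 genes (2.96%). Most named genes were chosen by their root interaction, which is part of this difference. That choice favours a called difference, so the count of 31 is a description. Values are root minus shoot on the log2 scale. The difference was above 0, with the root interaction the higher, for FLA8 (1.07), LCR68 (2.02), AGP14 (2.21), AGP4 (0.85), TPS1 (1.16), KCS10 (1.13), SWEET11 (3.67), CHI (1.21), F3H (0.81) and COR47 (1.005). It was below 0 for TAF12B (-1.44), PYD4 (-4.07), NIT1 (-1.79), OPT3 (-1.52), PDIL1-2 (-0.98), TI1 (-3.998), GSTU4 (-6.16), PCK1 (-0.86), BZIP60 (-0.85), ERO1 (-2.14) and PDIL2-3 (-0.81). It was also below 0 for BIP2 (-1.12), F6'H1 (-8.19), ARGOS (-3.34), SARD1 (-6.53), IAA2 (-0.79), GH3.3 (-4.70), SULTR2;1 (-2.37), NIA2 (-1.14), PIP2;5 (-1.56) and MYBC1 (-1.46). The shoot values of PYD4, TI1, GSTU4, ARGOS and SARD1 were under 1 CPM in at least 1 library and rest on few counts. AGP14 and F6'H1 did not pass the filter on low counts in shoot alone, so their differences rest on few shoot counts too.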

How the results depend on the processing

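The count of called root interactions, 2066, was 2011 with DESeq2, 2056 with DESeq2-type size factors in edgeR, 1973 without the filter and 1942 from the 16 libraries alone. It was 1165 at an adjusted p under 0.01 and 806 at 2-fold or more, as stricter thresholds call fewer genes. In the fits with other tools, filters or libraries, with the replicate number as a block or without 1 library, 78.6 to 98.4% of the 2066 genes were called again, none with another sign. Without 1 library at a time the counts ran from 1711 to 2163 for the root interaction, 5206 to 6068 for nobiro6 minus bz1728, 2904 to 3979 for nbr6-t1 minus wt, 6040 to 7388 for bz1728 minus wt, 2091 to 2718 for nobiro6 minus nbr6-t1, 7003 to 7685 for the interaction with taf12-t1 and 428 to 742 for root minus shoot. The shoot interaction moved most, from 118 without replicate 2 of nbr6-t1 to 367 without replicate 3 of nobiro6, and to 464 with DESeq2, against 221. The cause was not tested. Fits of bz1728 minus wt and nobiro6 minus nbr6-t1, and the fits without a library for taf12-t1, root minus shoot and the lists, were chosen after seeing the data.

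Of same-numbered root pairs, 6 of 40 had a correlation of deviations over 0.1 (median 0.028). Of differently numbered root pairs, 13 of 120 did (median -0.005). Whether libraries are paired by replicate number was not tested. With the number as a block, 2212 root interactions, 6010 genes of nobiro6 minus bz1728, 3889 of nbr6-t1 minus wt, 7610 of the interaction with taf12-t1, 233 shoot interactions and 596 root minus shoot differences were called.

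Changes of sign occurred in uncalled genes near 0 alone. AT2G40960 was 0.017 with DESeq2, 0.004 with other size factors, 0.01 without the filter and 0.021 from 16 libraries, and ran from -0.165 to 0.384 without 1 library at a time. The same range was -0.178 to 0.12 for TAF12, -0.079 to 0.245 for TIN1, -0.127 to 0.054 for UBP5, -0.065 to 0.161 for AT1G17430 and -0.187 to 0.313 for AT3G10040. At about 4.73 M counts per root library, genes under about 1 CPM rest on few counts, and their folds are imprecise.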
